A study of Bubalus bubalis with 6 samples.

Results

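The ion channel genes on this array comprised 320 probes under 118 gene names, out of 177440 non-control probes, of which 19762 carried one of 7932 gene names. They were taken by symbol, as every named probe of the potassium (KCN), calcium (CACN), sodium (SCN), transient receptor potential (TRPA, TRPC, TRPM and TRPV), chloride (CLCN, CLIC and ANO), hyperpolarization-activated (HCN), nicotinic (CHRN), GABA-A (GABR), ionotropic glutamate (GRIA, GRID, GRIK and GRIN) and otopetrin proton channel (OTOP) families. The symbol rule used no measured value. GRINL1A, caught by its first letters, codes for no channel subunit, and neither of its probes met the input filter given below. It entered only the counts of names and probes and the per-probe fits without that filter. DNA of cryopreserved semen from 3 subfertile buffalo bulls (1, 4 and 5) and 3 high-fertile buffalo bulls (2, 3 and 5) was sheared to fragments of 300 to 1000 bp, and methylated fragments were captured with an antibody against 5-methylcytosine (meDIP). Each bull had 1 array on which captured DNA (IP, Cy5) and its own input DNA (Cy3) were hybridised together, and the study compared the fertility classes. The labels give no age, breed, herd or definition of the classes, and the shared number 5 does not mean a shared animal.

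Ion channels let selected ions cross membranes and so set membrane potential, cell volume and calcium entry. In sperm, channels for potassium, calcium and protons govern motility and the changes that precede fertilization, with the CatSper calcium channel and the potassium channel SLO3 (KCNU1) best known. Most of the family serves nerve, muscle, heart or epithelium, and mature sperm make little or no new RNA. The antibody binds methylated cytosine, which in mammalian DNA lies mostly at CpG dinucleotides.

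Each probe was 60 bases long and shorter than the captured fragments, so a probe without a CpG could still report on CpGs nearby. The sequences below are among those on which the results turn, read from the deposited array files, written 5′ to 3′ as printed on the array, with CpGs in capitals. They stand first for the probe with the largest split between fertility classes (KCNH1), then for probes higher on the later scan dates (OTOP2 and HCN3), then for probes lower on the later scan dates (KCND2, TRPC6, ANO3 and KCNJ13).
KCNH1: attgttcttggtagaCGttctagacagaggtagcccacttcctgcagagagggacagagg
OTOP2 at 58171223: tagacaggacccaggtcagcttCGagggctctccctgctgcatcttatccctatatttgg
OTOP2 at 58171668: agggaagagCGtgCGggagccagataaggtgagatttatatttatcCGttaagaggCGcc
HCN3: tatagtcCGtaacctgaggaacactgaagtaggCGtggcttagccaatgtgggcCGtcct
KCND2: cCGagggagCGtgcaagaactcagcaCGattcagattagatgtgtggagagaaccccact
TRPC6: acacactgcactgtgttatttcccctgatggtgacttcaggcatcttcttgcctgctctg
ANO3: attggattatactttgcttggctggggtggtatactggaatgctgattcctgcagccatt
KCNJ13: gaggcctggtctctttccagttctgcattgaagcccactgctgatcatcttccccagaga

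By the probe names, the KCNH1 probe lies at chr16:70098345-70098404, and the OTOP2 probes at chr19:58171223-58171282 and chr19:58171668-58171727. The HCN3 probe lies at chr3:16758646-16758705, KCND2 at chr4:88286738-88286797, TRPC6 at chr15:6021537-6021596, ANO3 at chr15:56873946-56874005 and KCNJ13 at chr3:119828134-119828193. Neither the genome build nor the strand nor the position relative to exons is stated in the labels or headers. The chromosome numbers run over 29 autosomes, against 24 in the buffalo RefSeq table, so that table was used for names alone and held 114 of the 118 symbols.

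Values are log2(IP/input), the log2 ratio of captured to input signal, shifted so that the median non-control probe of an array reads 0; a positive value means more captured DNA than at that array's median probe. A probe counted as tested when the scanner software marked its input as well above background in each of the 6 bulls and flagged no spot as non-uniform, which 145 of the 320 ion channel probes met (45.3%), against 38.7% of all named probes and 62.4% of all probes. Tested ion channel probes held 2.47 CpGs on average and the ion channel probes left out held 0.914. Of the 118 gene names, 20 had at least 3 tested probes and form the gene regions below, 52 had 1 or 2, and 46 had none. The median gene had 2 probes, and of 64 pairs of neighbouring tested probes 28 shared bases, so probes of a gene are not independent readings.

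The 6 arrays fell into sets by scan date. Subfertile bull 4 and high-fertile bulls 2 and 3 were scanned on the first date, and subfertile bulls 1 and 5 and high-fertile bull 5 on later dates, per the file headers. Over the 20 ion channel gene regions, Pearson's r was 0.37 to 0.87 between arrays of the same set and -0.09 to 0.43 between arrays of different sets, with gene regions as the points and no test. The slides divide the bulls differently, with subfertile bull 5 and high-fertile bull 5 on a slide of their own. Subfertile bull 1 alone was read with another extraction protocol of the scanner software. Captured signal was well above background at 145, 117 and 142 of the 145 tested ion channel probes in subfertile bulls 1, 4 and 5, and at 97, 132 and 138 in high-fertile bulls 2, 3 and 5. The 3 lowest of these counts belong to the 3 first-date arrays. A methylation array holds no expression values by which the cells could be checked. Of the sperm, leukocyte and epithelial genes looked up, 3, 2 and 4 had a tested probe, and none of these 9 passed the fertility test or had an unadjusted p below 0.05.

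Subfertile and high-fertile sperm showed no ion channel gene with a methylation signal difference that passed the test. The 20 gene regions differed, as subfertile minus high-fertile, by -0.21 to 0.35 on the log2 scale with a median of 0.15, and 16 differences were positive and 4 negative. The median over all 737 gene regions of the array was 0.08, with 454 positive and 283 negative. Leaving out 1 bull moved the ion channel median to 0.036, 0.060 and 0.31 for high-fertile bulls 2, 3 and 5 and to 0.23 for subfertile bull 4. By limma with Benjamini-Hochberg adjustment over all gene regions, 0 of 20 ion channel regions passed an adjusted p of 0.05 and 0 had an unadjusted p below it, against 0 of 737 (0%) and 6 of 737 in all. Values of the classes were apart in all bulls at 0 of 20 ion channel regions, where 2.99% of all gene regions had classes that did not overlap. With the scan date as a term in the fit the median was 0.02, with 10 differences positive and 10 negative, 6 of the 20 had turned sign, and again 0 passed. The 95% interval lay within 1 log2 unit of 0 for 17 of the 20 regions, and for all 20 with the scan date as a term.

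**Figure D1:**
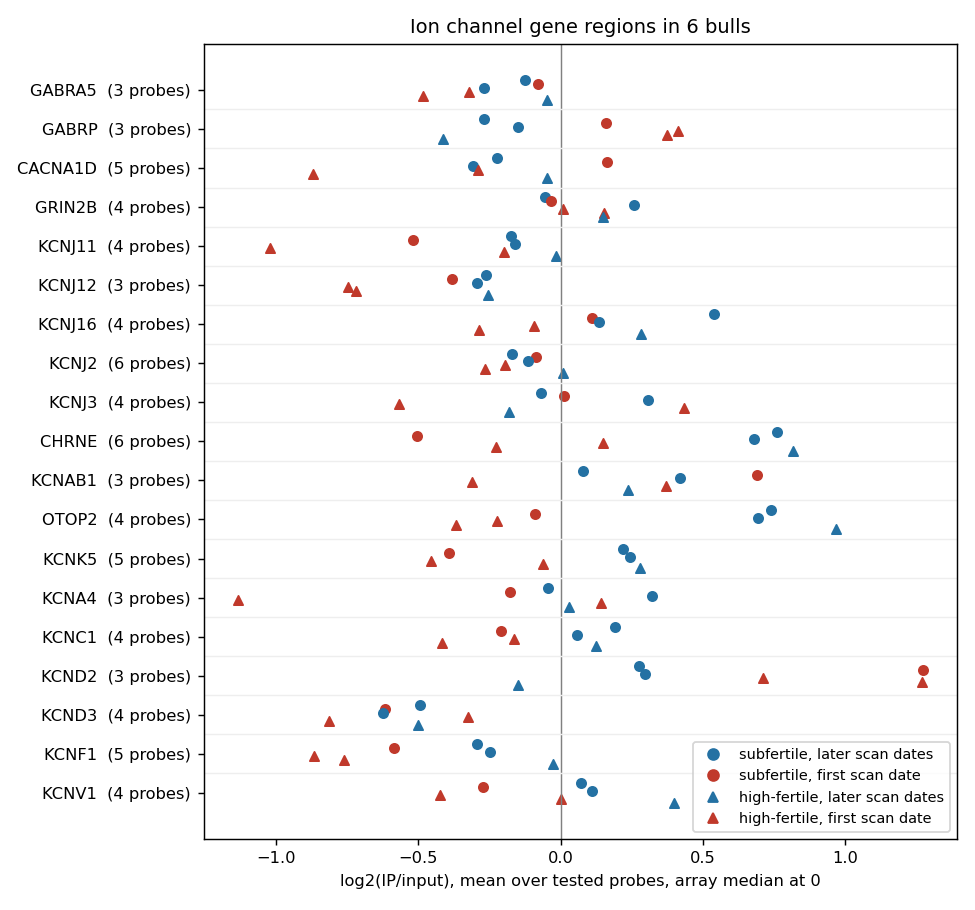
Mean log2(IP/input) of the tested probes of the ion channel gene regions, with 1 symbol per bull; circles are subfertile, triangles are high-fertile, blue is later scan dates and red is the first scan date. The rows of CHRNE, OTOP2, KCNC1, KCNF1, KCNJ11, KCNJ12, KCNJ16, KCNK5 and KCNV1 separate by colour with the later dates to the right. KCND2 and GABRP separate with the later dates to the left, and no row separates by symbol shape.

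The potassium channel accessory gene KCNAB1, whose protein binds the inner face of voltage-gated potassium channels, had 0.08, 0.69 and 0.42 in subfertile bulls 1, 4 and 5, against -0.31, 0.37 and 0.24 in high-fertile bulls 2, 3 and 5. Subfertile bull 4 was highest and high-fertile bull 2 lowest, and the classes overlapped. The difference was 0.30 (SE 0.27), and its 3 tested probes each share 40 bases with the next.

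Among inward rectifier potassium channels, which hold the resting potential, KCNJ16 had 0.54, 0.11 and 0.13 in subfertile bulls 1, 4 and 5 and -0.09, -0.29 and 0.28 in high-fertile bulls 2, 3 and 5, a difference of 0.29 (SE 0.24). High-fertile bull 5 lay within the subfertile range. KCNJ12, a muscle and brain member of the family, was below 0 in every bull, at -0.26, -0.38 and -0.30 in subfertile bulls 1, 4 and 5 and -0.75, -0.72 and -0.25 in high-fertile bulls 2, 3 and 5. The difference of 0.26 (SE 0.22) rested on the first scan date, since high-fertile bull 5 lay beside the subfertile bulls. KCNJ2, which sets the resting potential of heart and skeletal muscle, had the smallest spread of all 20 regions, with an SD over the 6 bulls of 0.10 at a mean of -0.14 over 6 tested probes. KCNJ11, the pore of the ATP-sensitive potassium channel of pancreatic beta cells, was also below 0 in every bull, while KCNJ3, a G protein-gated heart and brain channel, took both signs in both classes.

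CACNA1D, the pore of an L-type calcium channel of heart pacemaker and endocrine cells, had -0.23, 0.16 and -0.31 in subfertile bulls 1, 4 and 5 and -0.29, -0.87 and -0.05 in high-fertile bulls 2, 3 and 5. High-fertile bull 3 was the lowest and subfertile bull 4 the highest, both of the first scan date, and the difference was 0.28 (SE 0.27). KCNAB1, KCNJ16, KCNJ12 and CACNA1D had the smallest unadjusted p-values among the 20 regions, the lowest being 0.253 by limma. The adjusted p was 0.999863 at the lowest.

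GABRP, the pi subunit of the GABA-A receptor, had the most negative difference, -0.21 (SE 0.28). Its values were -0.27, 0.16 and -0.15 in subfertile bulls 1, 4 and 5, against 0.41, 0.37 and -0.41 in high-fertile bulls 2, 3 and 5. All 3 first-date bulls were above 0 and all 3 later-date bulls below it. KCNK5, an acid-sensitive two-pore potassium channel studied in mouse sperm, had 0.22, -0.39 and 0.24 in subfertile bulls 1, 4 and 5 and -0.46, -0.06 and 0.28 in high-fertile bulls 2, 3 and 5, a difference of 0.10 (SE 0.28). In KCNK5 the later-date bulls were the 3 highest. Captured signal was well above background at 11 of 15 first-date and 15 of 15 later-date KCNK5 spots. For GABRP it was so at 5 of 9 first-date and 7 of 9 later-date spots.

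Other gene regions were GABRA5 and GRIN2B, subunits of GABA-A and NMDA-type glutamate receptors, and the voltage-gated potassium channel genes KCNA4, KCNC1, KCND3, KCNF1 and KCNV1. Their classes overlapped as well. On the first scan date alone, with 1 subfertile and 2 high-fertile bulls, the differences of the 20 regions ran from -0.47 to 0.75. On the later dates alone, with 2 subfertile bulls and 1 high-fertile bull, they ran from -0.31 to 0.43, and 10 of the 20 had opposite signs between the sets. A test of that difference between sets, the interaction of class and scan date in limma, called 0 of 20 regions, with 0 at an unadjusted p below 0.05, and 0 of 737 in all, with 25 below it.

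**Figure D2:**
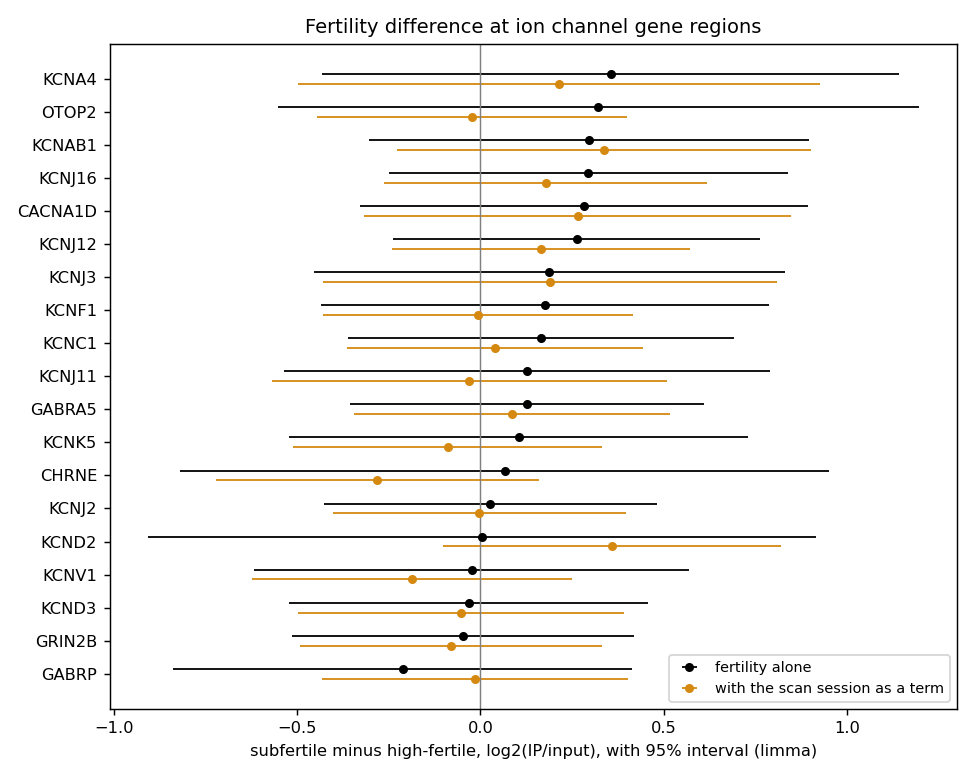
Difference in log2(IP/input), subfertile minus high-fertile, at the ion channel gene regions with 95% intervals from limma, black for fertility alone and orange with the scan date as a term. Every interval crosses 0 in both fits; estimates run from -0.21 to 0.35 alone and from -0.28 to 0.36 with the scan date.

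Single probes gave the same count. At the 145 tested ion channel probes limma called 0, and 1 had an unadjusted p below 0.05; over all 110686 tested probes it called 0 (0%), with 2036 below that level. Classes did not overlap at 7 ion channel probes, where 5.78% of all tested probes had classes apart, a share close to that of the ion channel probes. With genes of 1 or 2 tested probes added, 0 of 72 ion channel genes passed, 1 had an unadjusted p below 0.05, and 3 had classes apart, beside 0% called and 3.87% apart among all 4286 such genes.

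The 1 probe below that level belongs to KCNH1, a voltage-gated potassium channel gene of the brain-expressed EAG family. It had -0.75, -1.40 and -0.88 in subfertile bulls 1, 4 and 5, against 0.96, 1.23 and 0.26 in high-fertile bulls 2, 3 and 5. Every subfertile bull was below 0 and every high-fertile bull above it, on both sets of scan dates. The difference was -1.83 (SE 0.36), with an adjusted p of 0.999984 over all tested probes by limma. Captured signal at this spot was well above background in only 1 of 3 subfertile and 2 of 3 high-fertile bulls, and with normexp background correction the difference was -0.50 (SE 0.15). KCNH1 has 5 probes on the array; the other 4 were not tested, so no neighbour checks it.

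The other 6 probes with classes apart showed smaller splits. KCNS3, a silent potassium channel subunit that modifies its partners, and KCNH4, a further member of the EAG superfamily, were lower in subfertile bulls, with differences of -0.73 (SE 0.39) and -0.39 (SE 0.29). At the KCNK5 probe chr23:13595905-13595964 subfertile bulls 1, 4 and 5 had -0.04, 0.40 and 0.31 and high-fertile bulls 2, 3 and 5 had -0.50, -0.40 and -0.09, a difference of 0.55 (SE 0.30). At the tested KCNK5 probe that starts 20 bases before it the classes overlapped. Single probes of KCND2 and of KCNK1, a two-pore potassium channel gene, were higher in subfertile bulls by 0.49 (SE 0.29) and 0.47 (SE 0.32). A tested neighbour that shares 25 bases with the KCNK1 probe was not among the probes with classes apart. Captured signal at the KCND2 probe was well above background in 2 of 3 subfertile and 1 of 3 high-fertile bulls, and on none of the 3 first-date arrays; at the KCNK1 probe it was in 3 of 3 subfertile and 2 of 3 high-fertile bulls. With normexp correction the differences were -0.15 at KCNS3, -0.14 at KCNH4, 0.25 at KCNK5, 0.24 at KCND2 and 0.28 at KCNK1, and the classes overlapped at KCNS3, KCNH4 and KCNK1. None of the 7 passed, and the KCND2 region as a whole overlapped between classes.

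Scan date, unlike fertility class, gave calls among the ion channel genes. As later minus first date, with the fertility class in the fit, 2 of 20 gene regions were higher and 1 lower at an adjusted p of 0.05 by limma, beside 14.0% higher and 6.78% lower among all 737. Neither share of the ion channel regions exceeds the array's. These counts rest on few arrays: they came to 0 when subfertile bull 1, subfertile bull 4 or high-fertile bull 5 was left out, to 6 when high-fertile bull 2 was, and to 9 when high-fertile bull 3 was. Over all 737 regions the calls were then 1, 3, 0, 249 and 217, in the same order of bulls. Centring the arrays on tested probes lowered every such difference by 0.24. It gave 2 higher and 2 lower, beside 26 higher and 82 lower of all 737. GABRP was the region added (-0.83, adjusted p 0.021 by limma). Normexp correction gave 10 higher and 1 lower, beside 248 higher and 42 lower of all 737. Apart from the test, and with the main centring, the sets of dates did not overlap at 10 of 20 regions with the later dates higher. At 2 of 20 they did not overlap with the later dates lower. Among all gene regions the sets did not overlap at 338 of 737, of which 263 were higher and 75 lower. The labels do not say what else changed between the dates, such as labelling or hybridisation, and these cannot be told apart from the date.

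CHRNE, the subunit of the adult muscle acetylcholine receptor that replaces the fetal one, had 0.76 and 0.68 in later-date subfertile bulls 1 and 5 and 0.82 in later-date high-fertile bull 5. On the first date it had -0.50 in subfertile bull 4 and 0.15 and -0.23 in high-fertile bulls 2 and 3. Later-date bulls of both classes stood above all first-date bulls, by 1.04 (SE 0.20, limma adjusted p 0.0114), while the fertility difference was 0.07 (SE 0.39). Of its 6 tested probes, 3 passed on their own, and of these a pair that shares 40 bases differed by 1.14 and 1.25. Over the whole CHRNE region, captured signal was well above background at 18 of 18 later-date spots but at 11 of 18 first-date spots.

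OTOP2, coding for a proton-selective channel of the otopetrin family, behaved alike over 4 tested probes. It had 0.74 and 0.69 in later-date subfertile bulls 1 and 5 and 0.97 in later-date high-fertile bull 5, and on the first date -0.09 in subfertile bull 4 and -0.22 and -0.37 in high-fertile bulls 2 and 3. The later dates were higher by 1.03 (SE 0.19, limma adjusted p 0.0101), and subfertile bulls differed from high-fertile bulls by 0.32 (SE 0.39). The fertility value was -0.02 once the scan date entered the fit.

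KCND2, a pore subunit of the fast A-type potassium current of neurons, went the other way. It had 0.28 and 0.30 in later-date subfertile bulls 1 and 5 and -0.15 in later-date high-fertile bull 5, and on the first date 1.28 in subfertile bull 4 and 0.71 and 1.27 in high-fertile bulls 2 and 3. The difference, later minus first, was -1.06 (SE 0.20, limma adjusted p 0.0119), and the fertility difference was 0.00 (SE 0.40). The largest difference among its 3 tested probes was at the one printed above, which lies 573289 bp from the next tested probe and had captured signal well above background on all 6 arrays. There later-date subfertile bulls 1 and 5 had 0.49 and 0.95 and later-date high-fertile bull 5 had -0.35, against 3.88 in first-date subfertile bull 4 and 2.39 and 3.77 in first-date high-fertile bulls 2 and 3. Of the other 2 probes, 1 differed by -0.12, with captured signal well above background on 2 of 3 first-date arrays, and 1 had such signal on 0 of 3 first-date arrays, so no difference is given for it. The median of the 3 probes in place of their mean gave -0.10 (adjusted p 0.768 by limma).

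**Figure D3:**
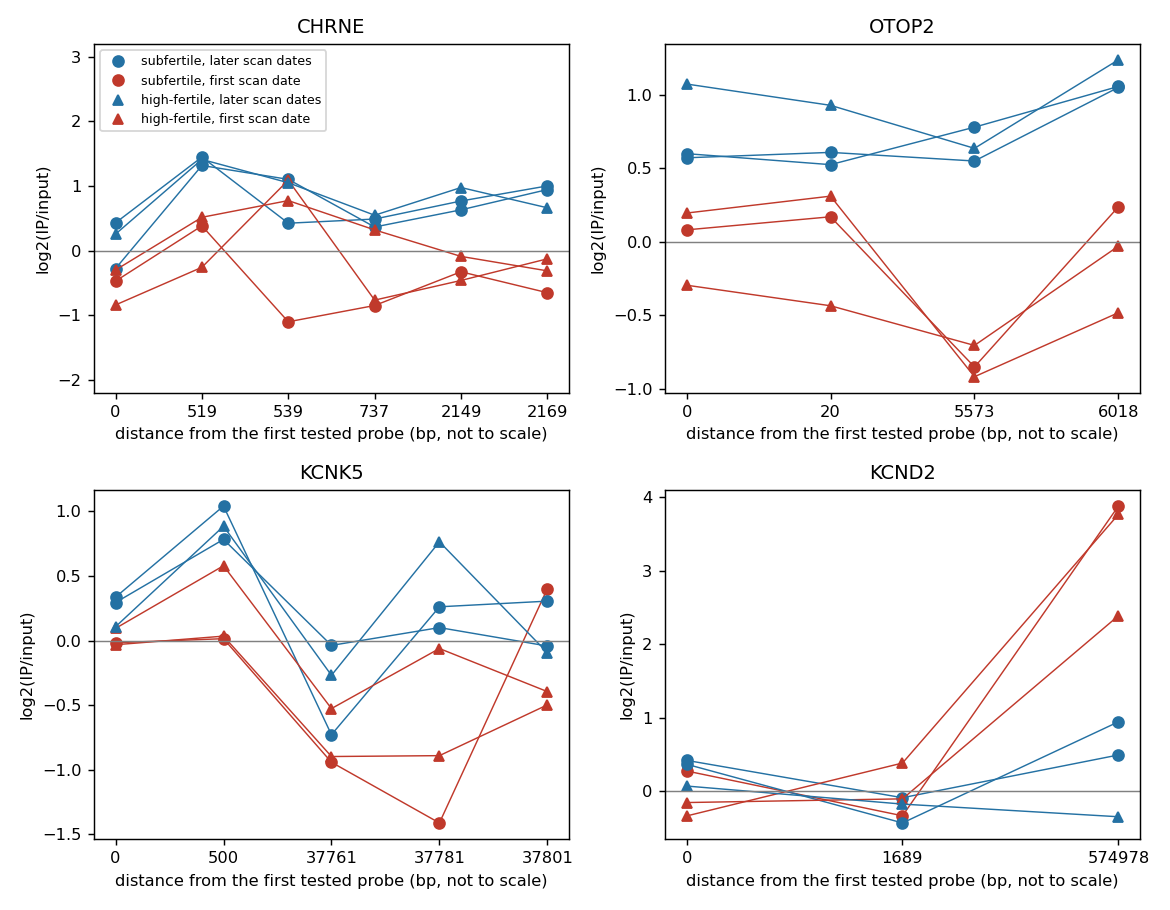
log2(IP/input) at each tested probe of CHRNE, OTOP2, KCNK5 and KCND2, with probes in order of position (distance in bp from the first tested probe, not to scale) and 1 line per bull. Later-date bulls (blue) lie above first-date bulls (red) at every OTOP2 probe, and KCND2 separates at its last probe alone.

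Per probe, 9 of the 145 ion channel probes were higher and 10 lower on the later dates at an adjusted p of 0.05 by limma. Among all tested probes 6.50% were higher and 1.58% lower, and among all 7644 tested named probes 6.07% were higher and 8.49% lower, close to the shares of the ion channel probes. Centring on tested probes gave 1 higher and 9 lower ion channel probes. Over all 110686 tested probes it gave 1115 higher and 1819 lower, against 7194 and 1747 with the main centring. The higher calls thus depended on the centring in both sets. Counted by gene with at least 1 tested probe, 7 of 72 were higher and 9 lower, beside 7.30% and 12.8% of all such genes. Without subfertile bull 1, 4 or 5, or without high-fertile bull 5, 0 ion channel probes passed, and 0 of all tested probes did.

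At the lower probes the bulls lay far apart. TRPC6, a cation channel opened by diacylglycerol, had -1.01 and -1.16 in later-date subfertile bulls 1 and 5 and -2.15 in later-date high-fertile bull 5, against 2.22 in first-date subfertile bull 4 and 1.09 and 2.62 in first-date high-fertile bulls 2 and 3. The sets lay on either side of 0, with a difference of -3.66 (SE 0.42), although captured signal was well above background on only 2 of the 3 later-date arrays. SCN1A, a sodium channel of brain neurons, differed by -2.85 (SE 0.34), ANO3 of the anoctamin family by -2.84 (SE 0.30) at the probe printed above and -2.53 (SE 0.60) at another, and KCNJ13, an inward rectifier of epithelia, by -2.74 (SE 0.29). With normexp correction these differences were smaller, at -1.32 for TRPC6, -1.51 for SCN1A, -1.29 for the printed ANO3 probe and -1.22 for KCNJ13, and the KCND2 probe's was -1.67. TRPM7, GRIA2 and KCNC4 each gave 1 lower probe too. The TRPC6, KCNJ13 and printed ANO3 probes hold no CpG. Of the 10 lower probes, 4 held none, 5 held 1 or 2 and 1 held 3 or more, out of 13, 68 and 64 tested. Among all named probes 218 of 983, 347 of 3232 and 84 of 3429 in these CpG classes were lower. Over the whole array it was 373 of 4668, 771 of 42132 and 603 of 63886.

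The higher probes, KCNK5 excepted, held a CpG. Among all named probes 464 were higher, and 11 of these held none. OTOP2 differed by 1.48 (SE 0.24) and 1.15 (SE 0.28) at the probes printed above, and HCN3, a hyperpolarization-activated channel gene, by 1.27 (SE 0.28). CHRND, a partner of CHRNE in the muscle receptor, and CACNB3, an accessory calcium channel subunit, gave 1 probe each. The KCNK5 probe chr23:13595885-13595944 was also called, but its captured signal was not well above background on any of the 3 first-date arrays, so no difference is given.

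The number of CpGs in a probe went with the direction of the scan date difference. In the ion channel probes without a CpG (13 tested), the median log2(IP/input) was -0.34, 0.33 and -0.40 in subfertile bulls 1, 4 and 5 and 0.11, 0.45 and -0.66 in high-fertile bulls 2, 3 and 5. With 3 or more CpGs (64 tested) it was 0.14, -0.27 and 0.09 in subfertile bulls 1, 4 and 5 and -0.33, -0.32 and 0.17 in high-fertile bulls 2, 3 and 5. In each first-date bull the probes without a CpG had the higher median, and in each later-date bull those with 3 or more did, whatever the fertility class. The median difference, later minus first, was -0.95 without a CpG, 0.27 with 1 or 2 and 0.52 with 3 or more. Across the 145 probes Pearson's r between CpG number and that difference was 0.35, across all 7644 named tested probes 0.38 and across all 110686 tested probes 0.12; probes share arrays and base composition, and no test was made. The 4668 tested probes without a CpG over the whole array differed by a median of -0.07.

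**Figure D4:**
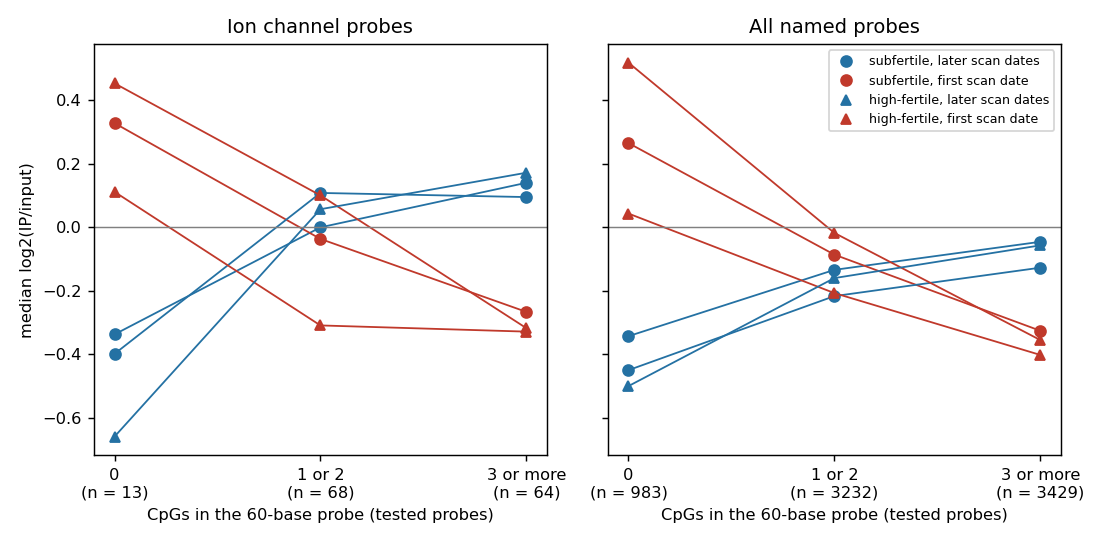
Median log2(IP/input) per bull by the number of CpGs in the probe, for the 145 tested ion channel probes (left) and all 7644 tested named probes (right); circles are subfertile and triangles high-fertile, blue is later dates and red is the first date. Blue lines rise from no CpG to 3 or more and red lines fall in both panels.

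As a level, without regard to group, ion channel genes lay near the array median. The 20 regions had a median of -0.02 over 6 bulls against -0.18 for all 737 gene regions, and the 72 genes with any tested probe a median of -0.01 against -0.14 for all 4286; with no filter on input the first median became 0.35, over 53 regions. Below 0 in all 6 bulls were 5 of the 20 regions (25%), which were GABRA5, KCND3, KCNF1, KCNJ11 and KCNJ12, against 30.3% of all regions. Above 0 in all 6 bulls were 0 of 20, against 1.49% of all. These are ratios of captured over input DNA, which also vary with the CpGs of a fragment, so their order is no order of methylation.

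Of the voltage-gated potassium channel genes, 18 of 19 had a tested probe, with a median of -0.04 and 11 below 0. KCND3, a second A-type channel gene, was the lowest of the ion channel genes with at least 2 tested probes. It had -0.50, -0.62 and -0.63 in subfertile bulls 1, 4 and 5 and -0.33, -0.81 and -0.50 in high-fertile bulls 2, 3 and 5. All 6 bulls were below 0, and the SD over them was 0.16, but captured signal was well above background at only 11 of 12 spots in subfertile and 7 of 12 in high-fertile bulls, and at 6 of 12 on the first date. KCNF1, a silent subunit, averaged -0.46 over 5 probes of which neighbours overlap, while KCND2 averaged 0.61, with its probe printed above the highest of its 3.

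Inward rectifier genes had a median of -0.14 over 9 tested genes and two-pore potassium genes -0.28 over 4, all 4 below 0. The 3 tested potassium accessory genes, KCNAB1, KCNE4 and KCNMB3, were above 0. Calcium channel pore genes had a median of -0.27 over 4, and CACNA1B, the N-type channel of nerve terminals, averaged -0.47 with an SD of 0.66. The 5 tested calcium accessory genes had a median of -0.39.

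KCNN2, a calcium-activated potassium channel gene, averaged 0.14 and HCN3 -0.34, each over 1 probe. Of the sodium channel genes, the pore gene SCN1A averaged 1.46 over 1 probe, with means of 0.10 on the later dates and 2.82 on the first, and the accessory gene SCN3B averaged -0.61 over 1 probe. Medians were 0.05 over 4 TRP genes and 0.11 over 4 chloride channel genes, where ANO3 averaged 0.50 with an SD of 1.48. Ligand-gated groups were at or above 0, with medians of 0.15 over 4 nicotinic, 0.02 over 5 GABA-A and 0.26 over 4 glutamate receptor genes. The kainate receptor gene GRIK2 had 0.42, 0.30 and 0.67 in subfertile bulls 1, 4 and 5 and -0.64, 0.40 and 0.79 in high-fertile bulls 2, 3 and 5. High-fertile bull 2 alone was below 0. CHRNA3, a nicotinic subunit of autonomic ganglia with 1 tested probe, was the only one of the 72 genes above 0 in all 6 bulls, at 0.24, 0.39 and 0.28 in subfertile bulls 1, 4 and 5 and 0.24, 0.34 and 0.85 in high-fertile bulls 2, 3 and 5. Its name also covers a probe on another chromosome, which was not tested.

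**Figure D5:**
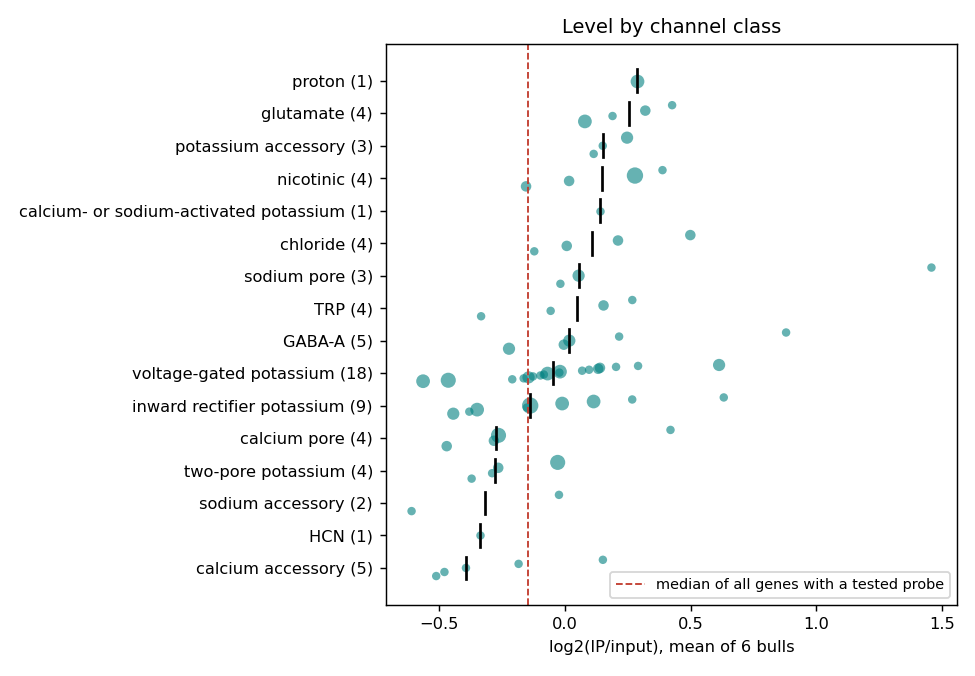
Mean log2(IP/input) over 6 bulls for the 72 ion channel genes with a tested probe, by channel class (number of genes in brackets); dot area grows with the number of tested probes, black bars are class medians and the dashed line is the median of all 4286 genes. Class medians run from -0.39 for calcium accessory genes to 0.29 for the single proton channel gene OTOP2.

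Channels known from sperm were poorly covered. Of 18 such genes looked up, 11 were on the array and 3 (KCNK5, TRPC6 and the P/Q-type calcium channel gene CACNA1A) had a tested probe. CACNA1A had 0.46, -0.15 and 0.82 in subfertile bulls 1, 4 and 5 and 0.13, 0.63 and 0.64 in high-fertile bulls 2, 3 and 5, overlapping between classes. KCNU1, whose product is the sperm-specific potassium channel SLO3, had 3 probes with none tested, and KCNMA1, CACNA1G, TRPM8, TRPC1, ANO1, CHRNA7 and GABRA2 had no tested probe either. Among 61 other channel, pump and exchanger genes outside the symbol rule, 35 were on the array and 19 had a tested probe. By limma 0 of these 19 passed the fertility test and 0 had an unadjusted p below 0.05, while 1 was higher on the later dates (ITPR3, a calcium release channel) and 2 lower (SLC8A3, a sodium-calcium exchanger, and PKD2, a polycystin cation channel).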

How the data were processed

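Per the labels, Cy5 held immunoprecipitated DNA and Cy3 input DNA on 6 two-colour Agilent arrays. The deposited scanner files hold intensity values made by Agilent Feature Extraction 10.7.3.1, per the file headers: background-subtracted, dye-normalized processed signals, which were used here, and mean signals with background. A deposited series table of log2 ratios served as an alternative; the deposited log10 ratio column was used to check direction. Gene names stood in 3 files and were carried to the others through the probe name. Each array's log2(IP/input) was centred on its median over non-control probes (3440 control spots left out), with no loess or quantile step. A gene region is the mean of at least 3 tested probes of 1 name. limma 3.58.1 in R 4.3.3 (lmFit, eBayes, 2-sided, Benjamini-Hochberg) was fitted over all features, and ion channel features were read from it; the script was tested on simulated data. Each sample is 1 bull, per the labels. Named were all gene regions, probes with classes apart, the 5 highest and lowest genes, up to 5 probes per direction by scan date, and known sperm channels; a few of these items are not reported here. The members and lists were chosen with earlier results of these data known. The number of arrays limits precision, and no counting interval applies.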

Additional observations from a re-analysis of the deposited data

How the results depend on the processing

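No paired analysis was possible because the classes share 1 replicate number (5), which names no common animal. For fertility, 0 ion channel regions and 0 probes passed by limma under every alternative run: normexp, no input filter, captured signal above background on all arrays, the deposited table, centring on tested probes, slide or scan date as a term, each set of dates alone, gene medians, fewer probes per gene and each bull left out. With no input filter the median difference of the ion channel regions was -0.17, with 18 of 53 positive and 35 negative. The median over all 2791 regions was then -0.26. Directions of single regions, none of which passed, also changed under some alternatives, and the cause was not tested. CHRNE (0.07) was -0.0052 with no input filter, -0.0083 centred on tested probes, -0.28 with the scan date (here and below also with at least 1 tested probe, added after seeing the data), -0.47 and -0.097 on the first and later dates alone, and from -0.17 (without high-fertile bull 3) to 0.47 (without subfertile bull 4) with a bull left out. KCNK5 (0.10) was -0.090 with the scan date, -0.13 and -0.047 on the first and later dates, and from -0.085 (without high-fertile bull 2) to 0.31 (without subfertile bull 4) with a bull left out. KCND2 (0.00) was 0.36 with the scan date, 0.28 and 0.43 on the first and later dates alone, and -0.12 with no input filter. It was -0.070 centred on tested probes, and ran from -0.38 (without high-fertile bull 5) to 0.33 (without high-fertile bull 3) with a bull left out. OTOP2 was -0.023 with the scan date and -0.25 within the later dates, CACNA1D -0.10 if unfiltered and -0.22 within the later dates, KCNJ12 -0.024 and GABRP 0.20 within the later dates.

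For the scan date, 3 of 20 regions passed, against 11 with normexp and 27 of 53 with no filter (2 higher, 25 lower). Over the array these were 153 of 737, 290 of 737 and 1599 of 2791 (70 higher, 1529 lower). With at least 1 probe 16 of 72 passed, with at least 2 it was 7 of 33. With at least 1 and centring on tested probes it was 14 of 72. Among all genes these were 861 of 4286, 389 of 1637 and 1047 of 4286. With a bull left out 0 to 9 regions passed, where 0 to 249 of 737 did over the array. Of probes 19 of 145 passed, against 61 with normexp, 36 of 89 with captured signal above background on all arrays and 10 centred on tested probes. Over the array these were 8941 of 110686, 33436 of 110686, 16395 of 59797 and 2934 of 110686. With a bull left out 0 to 39 passed, where 0 to 20318 did over the array. With no filter all 19 calls were lower, beside 2592 lower and 338 higher of all 177440 probes. The median level of -0.02 was 0.35 with no filter and 0.14 centred on tested probes. Of the 320 probes 175 were not tested, and 146 had input above background on all arrays.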
